A study of Mus musculus with 14 samples.

Results

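The GIMAP GTPase family was examined in bulk RNA-seq of 14 mouse mammary tumors. Its members were chosen by gene symbol, and rows for all 8 (Gimap1, Gimap3, Gimap4, Gimap5, Gimap6, Gimap7, Gimap8 and Gimap9) were found among the 56414 genes listed. M/D-driven tumors had been raised in female C57Bl/6 mice aged 6 to 9 weeks by a subcutaneous pellet of medroxyprogesterone acetate (MPA) and oral 7,12-dimethylbenz[a]anthracene (DMBA), whereas AT3 tumors had grown from cells of the AT3 mouse mammary line injected under the skin of C57Bl/6 mice, whose age the labels do not give. In each model, 1 arm was left untreated (4 M/D-driven and 3 AT3 tumors) and the other received nicotinamide (NAM, a form of vitamin B3) at 0.5% in the drinking water for 10 days (4 M/D-driven and 3 AT3 tumors), starting once tumors had reached 0.25 cm2. Each library is 1 tumor, and whether tumors of an arm came from separate mice is not given in the labels. AT3 is a single line transplanted outside the mammary gland, so that model, way of growth and experiment number cannot be told apart. The question addressed was how the family differed between NAM-treated and untreated tumors, between models and among its own members.

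GIMAP proteins (GTPases of the immunity-associated protein family) share a guanine nucleotide-binding AIG1 domain and are best known from lymphocytes. Gimap5 is needed for the survival and quiescence of peripheral T cells, Gimap1 for the maturation and survival of T and B cells, and Gimap3 and Gimap4 have been tied to the life and death decisions of T cells. Gimap6 takes part in autophagy, Gimap7 and Gimap9 are smaller and less studied members, and Gimap8 is unusual in carrying several AIG1 domains. In a tumor these transcripts can come from infiltrating lymphocytes, and endothelial cells are known to express some members as well.

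The 8 genes lie side by side on chromosome 6 of mm10, from 48647232 to 48770851, a span of 123.6 kb. Along the chromosome the order is Gimap8 (48647232 to 48660846), Gimap9 (48676135 to 48678704), Gimap4 (48684578 to 48692066), Gimap6 (48701577 to 48708244), Gimap7 (48718621 to 48724634), Gimap1 (48739047 to 48743795), Gimap5 (48746197 to 48754200) and Gimap3 (48764464 to 48770851). Gimap6 and Gimap3 are on the minus strand and the 6 others on the plus strand. Gimap1 overlaps its antisense transcript Gimap1os, and strand use in counting is not given in the sources used here, so that reads of these neighbors cannot be told apart. As paralogs, Gimap3 and Gimap5 among them, can share reads, values of single members carry that uncertainty.

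RefSeq promoters on GRCm38.p6 were found for all 8 members, with 9 start sites, since Gimap8 has a pair of them. The 250 bases that end at the start site are printed 5′ to 3′ on the strand of the gene for 4 members on which the results below turn. Gimap1 and Gimap4 departed most from the other M/D-driven tumors in a single tumor, Gimap8 was the member called with NAM in AT3 tumors, and Gimap9 had the highest level per length. Capitals mark letters that match a motif of the search, on either strand, and for Gimap8 the upstream start is shown.
Gimap1 (chr6:48738797-48739046, plus strand): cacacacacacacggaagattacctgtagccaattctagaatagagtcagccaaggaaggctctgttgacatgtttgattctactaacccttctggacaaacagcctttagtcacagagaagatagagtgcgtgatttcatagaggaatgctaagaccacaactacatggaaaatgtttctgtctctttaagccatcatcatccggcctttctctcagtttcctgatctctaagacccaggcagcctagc
Gimap4 (chr6:48684328-48684577, plus strand): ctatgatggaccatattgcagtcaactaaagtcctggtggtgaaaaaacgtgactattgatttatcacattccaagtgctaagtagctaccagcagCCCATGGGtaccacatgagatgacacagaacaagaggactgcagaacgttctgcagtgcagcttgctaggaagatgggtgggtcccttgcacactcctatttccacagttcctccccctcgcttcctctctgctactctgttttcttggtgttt
Gimap8 (chr6:48646984-48647233, plus strand): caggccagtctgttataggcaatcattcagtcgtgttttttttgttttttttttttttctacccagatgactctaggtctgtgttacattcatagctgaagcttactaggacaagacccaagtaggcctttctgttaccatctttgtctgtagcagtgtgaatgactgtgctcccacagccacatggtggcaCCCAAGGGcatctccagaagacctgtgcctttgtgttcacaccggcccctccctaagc
Gimap9 (chr6:48675885-48676134, plus strand): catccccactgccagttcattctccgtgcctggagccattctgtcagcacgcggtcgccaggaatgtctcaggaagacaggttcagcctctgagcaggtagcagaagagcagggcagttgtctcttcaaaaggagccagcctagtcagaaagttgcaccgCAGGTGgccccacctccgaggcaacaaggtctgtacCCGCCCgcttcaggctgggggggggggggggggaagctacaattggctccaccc
The window of Gimap1 held no match to any of the motifs searched, and neither did that of Gimap3. CCCNNGGG, the letters searched for EBF1 (a factor of the B lineage), stood in 4 of the 9 member windows, belonging to Gimap4, Gimap6 and both starts of Gimap8, whose windows overlap, against 11.8% of 32851 promoters in the table. CAGGAAGT, searched for ETS factors, was found upstream of Gimap5 and in 2.69% of all promoters. The E-box letters CAGGTG were found upstream of Gimap9 and in 17.2% of all promoters. The GC box, searched as GGGCGG, was present upstream of Gimap7 and Gimap9 and in 32.7% of all promoters, and the TATA box, searched as TATAAA, upstream of Gimap6 and in 12.4%. Letters for RUNX factors, TGTGGTT, occur in 4.4% of all promoters and in no member window. The same holds for those of TCF and LEF factors, CTTTGA, which 13.8% of all promoters contain. No motif is common to the 8 members, and a match is no proof of a bound site.

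Values are normalized counts, that is, reads per gene divided by a size factor of the tumor. The libraries held 50391585 to 84178009 reads on genes in M/D-driven and 40936868 to 75527467 in AT3 tumors, which leaves every member countable in every tumor (lowest normalized count 12.2, for Gimap7 in untreated AT3 tumor 2). NAM-treated M/D tumor 1, which is the sole tumor of experiment 2 while the 7 other M/D-driven tumors belong to experiment 1, stood apart from its model. The summed normalized count of 9 epithelial markers was 7604 in it, against 110997 to 368373 in the other 7, and all 9 were at their lowest there. The sum of 12 B cell markers was 220605, a level 160-fold above the median of the other 7 tumors (944.7 to 3380), with 11 of 12 at their highest. Vpreb1, part of the surrogate light chain of precursor B cells and named here after its values were seen, was at 67823 in that tumor and at 5.19 to 55.5 in the others. Endothelial markers were also high there, with a sum of 74220 against 20031 to 44311 and 12 of 16 at their highest. Markers of this library thus go against its label as a mammary tumor, and whether it is one was not tested. It is called by its label below, and each value that includes it carries this doubt. T cell markers did not move together in it, as 8 of 15 were at their lowest of 8 tumors and 3 at their highest. The part of these cell populations in the results below was not tested, and in bulk tumors fewer cells of a type and less RNA per cell cannot be told apart. The main fits of the members in M/D-driven tumors are therefore given with and without NAM-treated tumor 1, and leaving it out is also the comparison within experiment 1. Fits under other settings include this tumor unless stated otherwise.

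In untreated M/D-driven tumors, Gimap9 was the most abundant member per length and Gimap1 the least. Length is that of the longest GENCODE M21 transcript, whereas reads had been counted on constitutive regions only, so the order rests on that length. Before division by length, Gimap6 (1738 ± 452, SD, n = 4) was above Gimap9 (1250 ± 254). Per kb of transcript, the mean normalized count was 903 ± 183 (SD, n = 4) for Gimap9, 620 ± 203 for Gimap4, 547 ± 142 for Gimap6 and 427 ± 259 for Gimap3. It fell to 176 ± 114 for Gimap7, 167 ± 56.9 for Gimap8 and 165 ± 29.0 for Gimap5, and to 41.1 ± 9.10 for Gimap1. Of the 7 neighbor pairs in this order, only Gimap5 and Gimap1 had ranges that did not overlap (137 to 205 against 32.3 to 53.4). Members farther apart in the order could be told apart, as Gimap9 (794 to 1176) lay above Gimap6 (388 to 733), and Gimap4 and Gimap6 lay above Gimap7, Gimap8 and Gimap5. In untreated AT3 tumors Gimap9 came again at the top (710 ± 224, SD, n = 3), followed by Gimap6 (412 ± 124) and Gimap4 (378 ± 101). These 3 genes formed an upper tier whose ranges overlapped each other, and the next member, Gimap3 (52.0 to 159), lay entirely below Gimap4 (309 to 494). Gimap8 was the least abundant member per length in untreated AT3 tumors (19.1 ± 2.89), its range (17.0 to 22.4) overlapping that of Gimap7 (9.60 to 78.9). Before division by length, Gimap7 had the lowest mean there (49.0 ± 45.7, against 60.4 ± 9.14 for Gimap8).

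NAM-treated M/D tumor 1 had the highest value of all 8 M/D-driven tumors for all 8 members. The summed normalized count of the family was 74727 in this tumor, against 4685 to 9262 in the other 7. The excess was unequal among members. Gimap1 reached 1884 in NAM-treated tumor 1, against 86.2, 52.2, 59.3 and 67.6 in the untreated and 79.2, 60.8 and 112 in the other NAM-treated tumors, a level 27.9-fold above the median of the other 7. Gimap4 reached 25080, against 1629, 777, 1102 and 965 in untreated and 1340, 1082 and 1818 in the other NAM-treated tumors, or 22.8-fold above that median. For both genes the 7 other tumors, treated and untreated, lay within a 2.15-fold and a 2.34-fold range. Gimap3 was 14.3-fold, Gimap6 9.94-fold and Gimap5 9.33-fold above the median of the others. Gimap7 (6.75-fold), Gimap9 (6.42-fold) and Gimap8 (5.59-fold) stood least above it. Gimap1os, the transcript antisense to Gimap1, stood at 291 in this tumor and at 4.02 to 23.9 in the others. These ratios describe a single tumor and carry no replicate check.

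**Figure D1:**
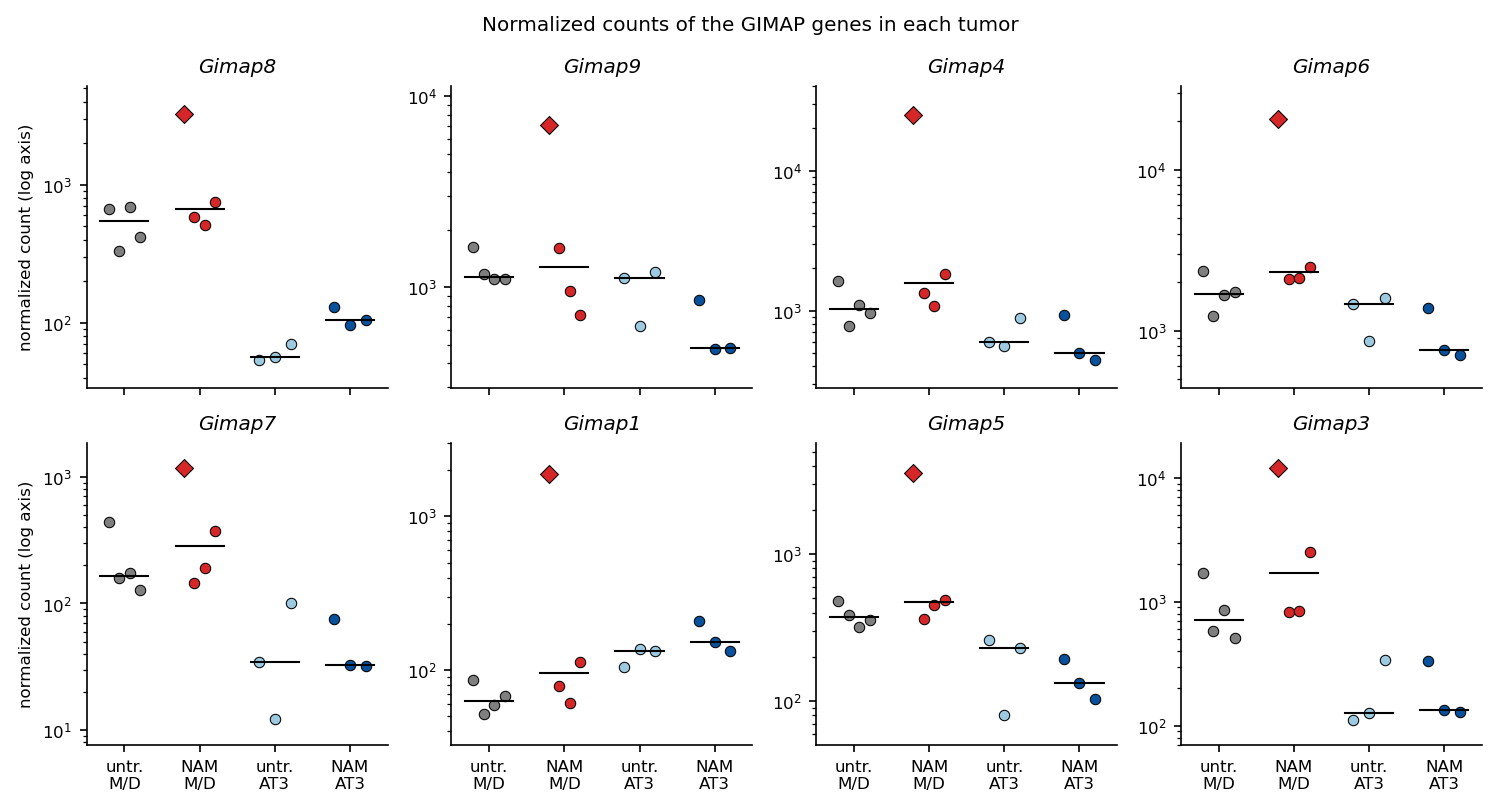
Normalized count of each GIMAP gene (log axis, its own range in each panel) by arm of each model, with 1 point per tumor, a diamond for NAM-treated M/D tumor 1 and a line at the median of an arm. The diamond is the top point in all 8 panels, between 1165 for Gimap7 and 25080 for Gimap4, and the arms of AT3 tumors are fully apart for Gimap8 only.

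A gene was called when its change was at least 1.5-fold and its p, not adjusted, did not exceed 0.05. Both limits are those of the study, whose methods do not say whether p was adjusted for them. It was taken here as unadjusted. By this rule no member was called in M/D-driven tumors, against 6.22% of the 21700 genes tested. The study, which used another test (DESeq2), listed Gimap8 among germinal center genes whose expression NAM restored in M/D-driven tumors. Its figure legend calls the p values adjusted. With limma, Gimap8 had a log2 fold change of 0.87 (interval −0.48 to 2.22, limma adjusted p = 0.78). Without NAM-treated tumor 1 it was 0.27 (−0.49 to 1.02). Log2 fold changes of NAM-treated over untreated tumors were all above 0, from 0.43 to 1.45 with a median of 1.07, where the median of all genes was 0.01. Gimap1 had the highest estimate, with 66.3 ± 14.7 in untreated and 534 ± 900 in NAM-treated tumors (SD, n = 4) and a log2 fold change of 1.45 (95% confidence interval −0.86 to 3.76, limma adjusted p = 0.78). Gimap4 changed from 1118 ± 366 to 7330 ± 11838 (log2 1.40, interval −0.71 to 3.52). Gimap3 went from 915 ± 555 to 4060 ± 5373 (log2 1.41, interval −0.54 to 3.35). In the NAM-treated arm the SD exceeded the mean for each of the 8 genes. The arms overlapped for all 8 members, while 4.43% of genes tested had arms that did not.

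Without NAM-treated tumor 1, estimates shrank to between −0.26 and 0.58 with a median of 0.29, and again no member was called (5.17% of the 21489 genes tested then). Gimap1 was at 84.1 ± 26.1 (SD, n = 3) in the remaining NAM-treated tumors and its log2 fold change was 0.32 (interval −0.55 to 1.19). Gimap6 came closest to a call (log2 0.39, interval −0.15 to 0.93, limma adjusted p = 0.83), with 2076, 2131 and 2467 in NAM-treated against 2331, 1234, 1658 and 1729 in untreated tumors. Gimap9 turned from 0.43 to −0.26 (interval −0.97 to 0.45). Its values were 1599, 950 and 715 in the 3 NAM-treated tumors left and 1628, 1171, 1103 and 1098 in untreated tumors, so that 2 treated tumors lay below all untreated ones and the other within their range. Gimap3 kept the widest spread, as untreated tumor 1 (1717) and NAM-treated tumor 4 (2539) exceeded the others (510 to 858) irrespective of arm. Gimap7 showed the same pair of tumors on top, at 438 and 375 against 127 to 190 in the 5 others. The summed level of T cell markers was also highest of these 7 tumors in those tumors (11191 in untreated tumor 1 and 16518 in NAM-treated tumor 4, against 4258 to 6144).

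**Figure D2:**
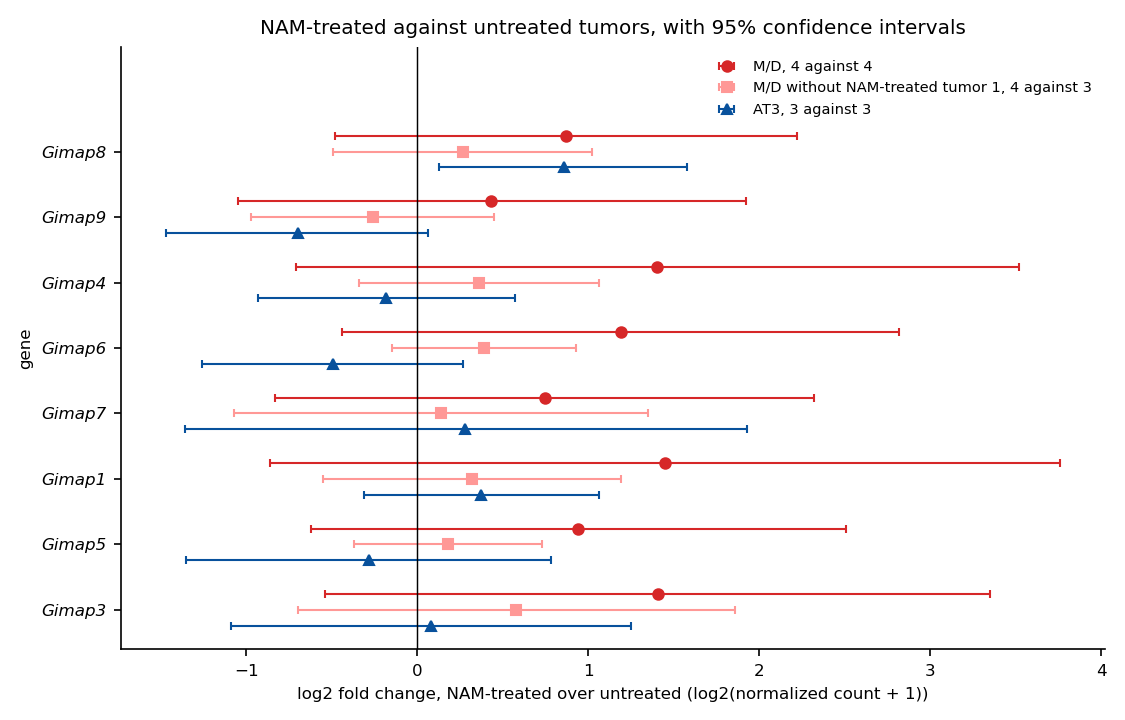
Log2 fold change of NAM-treated over untreated tumors for each GIMAP gene in M/D-driven tumors (circles), M/D-driven tumors without NAM-treated tumor 1 (squares) and AT3 tumors (triangles), with 95% confidence intervals from limma. Of the 24 intervals, only that of Gimap8 in AT3 tumors (0.13 to 1.58) leaves out 0.

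In AT3 tumors, 1 member of 8 was called with NAM, Gimap8, which was higher. This share stands beside 23.1% of the 19281 genes tested in that model. Gimap8 measured 53.6, 56.9 and 70.8 in untreated and 130, 96.0 and 106 in NAM-treated tumors. The arms did not overlap, as was true of 22.6% of all genes tested. The means were 60.4 ± 9.14 and 111 ± 17.5 (SD, n = 3), a log2 fold change of 0.86 (standard error 0.32, interval 0.13 to 1.58, limma adjusted p = 0.17). The call was lost when untreated tumor 1 (log2 0.78), NAM-treated tumor 1 (0.74), NAM-treated tumor 2 (0.96) or NAM-treated tumor 3 (0.89) was left out, while the sign of the difference held. Gimap8 also had the lowest level per length of the family in this model, and its value with NAM stayed below the 331 to 748 seen in the 7 M/D-driven tumors other than NAM-treated tumor 1, on scales set apart in each model.

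Gimap9 and Gimap6 had the lowest estimates in AT3 tumors. Gimap9 measured 1112, 629 and 1206 in untreated and 859, 472 and 479 in NAM-treated tumors, so that untreated tumor 2 fell among the treated ones (log2 −0.70, interval −1.47 to 0.06, limma adjusted p = 0.23). Gimap6 had the same arrangement, with 1471, 864 and 1599 against 1379, 757 and 700 (log2 −0.49, interval −1.26 to 0.27). Left without untreated tumor 2, the fit called Gimap5 (−0.82), Gimap6 (−0.77) and Gimap9 lower in addition to Gimap8 higher. That fit also called more genes in general, 3455 higher and 3310 lower of 18933 tested. Left without NAM-treated tumor 1, it called Gimap6 (−0.80) and Gimap9 (−0.99) lower, beside 3459 genes higher and 2955 lower of 19301 tested. Gimap1 had an estimate of 0.37 (interval −0.31 to 1.06), Gimap7 of 0.28 (−1.36 to 1.93), Gimap3 of 0.08 (−1.09 to 1.25), Gimap4 of −0.18 (−0.93 to 0.57) and Gimap5 of −0.28 (−1.35 to 0.78). The spread within an arm was wider than these differences. The median over the 8 members was −0.05, equal to that of all genes.

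Fold changes of AT3 tumors were related to transcript length and GC content across all genes, and members differed in how much removal of this trend moved them. With each tumor's trend removed, the calls were Gimap8 (log2 1.03, interval 0.41 to 1.64, limma adjusted p = 0.15) and Gimap1 (0.69, interval 0.10 to 1.28, limma adjusted p = 0.18), both higher, against 15.8% of genes tested in that fit. Gimap9 then stood at −0.01 (interval −0.36 to 0.35) and Gimap4 turned to 0.35 (−0.13 to 0.83), whereas Gimap6 stayed at −0.50 (−1.15 to 0.15).

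Whether NAM-treated and untreated tumors differed to another extent in AT3 than in M/D-driven tumors was tested as an interaction over all 14 tumors, and no member was called, against 14.9% of the 22710 genes tested. Estimates of the effect in AT3 minus that in M/D-driven tumors ran from −1.68 for Gimap6 (interval −3.66 to 0.30, limma adjusted p = 0.39) to −0.01 for Gimap8 (−1.63 to 1.61). All 8 were below 0, where the median of all genes was −0.04. These terms take in NAM-treated M/D tumor 1. Without it, Gimap1, Gimap7 and Gimap8 had estimates above 0 (0.06, 0.14 and 0.59). The intervals span several log2 units, so that a difference of moderate size between models was not detectable.

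Untreated AT3 and untreated M/D-driven tumors differed at 4 of the 8 members once the values had been brought to a scale shared by the 14 tumors, 1 being higher and 3 lower in AT3. Model differences were frequent in general, with 56.7% of 21560 genes called (26.5% higher and 30.2% lower). Gimap8 had the lowest ratio of the family. Its level on the shared scale was 594, 300, 610 and 377 in untreated M/D-driven and 64.1, 65.2 and 84.6 in untreated AT3 tumors. The ranges lay well apart, and the log2 difference, AT3 minus M/D, was −2.65 (standard error 0.34, interval −3.43 to −1.88, limma adjusted p = 0.00057). Gimap7 (log2 −2.06, interval −3.69 to −0.42, adjusted p = 0.040) and Gimap3 (−1.86, interval −3.04 to −0.68, adjusted p = 0.016) were lower too. For Gimap7, untreated M/D-driven tumors spanned 114 to 390 and untreated AT3 tumors reached up to 120, a slight overlap. For Gimap3 the spans were 457 to 1527 and 133 to 406. The call of Gimap7 was lost without untreated M/D tumor 1 (log2 −1.68) or untreated AT3 tumor 2 (−1.31).

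Gimap1 went in the opposite direction, from 59.2 ± 12.9 (SD, n = 4) in untreated M/D-driven to 147 ± 19.2 (SD, n = 3) in untreated AT3 tumors on the shared scale. The log2 difference was 1.31 (interval 0.52 to 2.10, limma adjusted p = 0.013). The reads of Gimap1os cannot be separated from it, and that transcript had a log2 difference of 0.26, which was not called. Gimap1, Gimap3 and Gimap8 had ranges that did not overlap between models, as did 54.0% of all genes tested. Gimap9 (1115 ± 225 and 1163 ± 387, log2 0.02, interval −0.63 to 0.66), Gimap6 (log2 −0.02, −0.69 to 0.65), Gimap4 (−0.29, −0.96 to 0.38) and Gimap5 (−0.77, −1.75 to 0.21) were not called. The signs of Gimap1, Gimap3, Gimap5, Gimap7 and Gimap8 held under all alternatives run, rescaling included, whereas those of Gimap4, Gimap6 and Gimap9 turned under at least 1 scaling. The median of the family was −0.53, that of all genes −0.04.

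**Figure D3:**
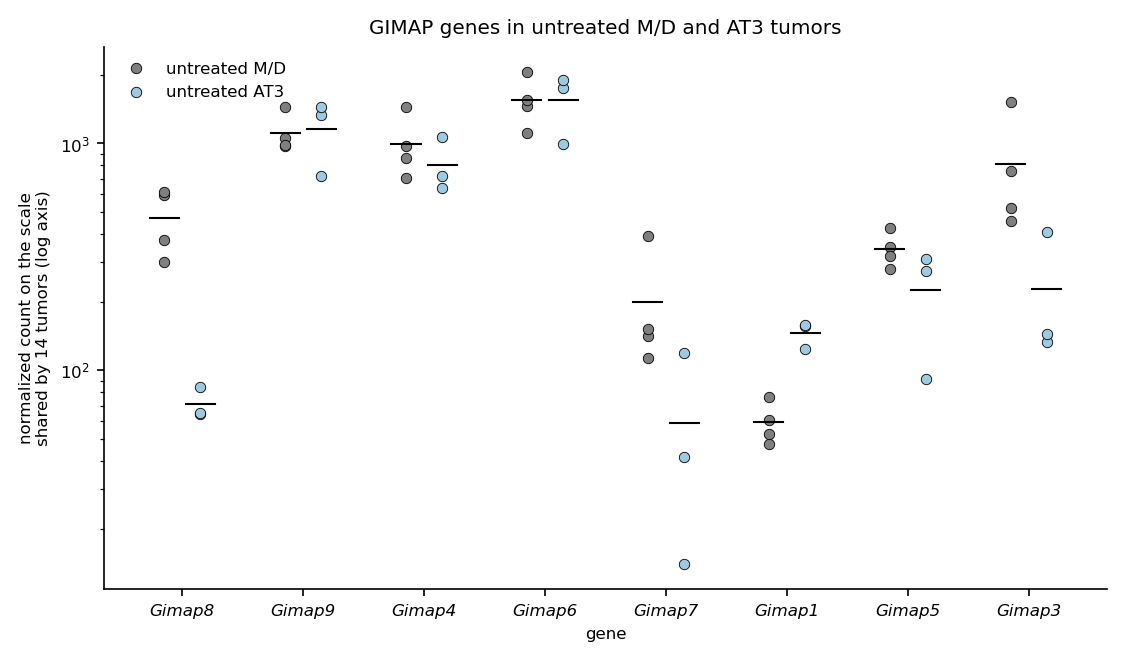
Level of each GIMAP gene on the scale shared by 14 tumors (log axis) in 4 untreated M/D-driven and 3 untreated AT3 tumors, with 1 point per tumor and a line at the mean. Gimap8 falls from a mean of 470 to 71.3 and Gimap1 rises from 59.2 to 147, while Gimap6 and Gimap9 lie at the same height in both models.

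The make-up of the family signal separated the models and the outlying tumor. As a share of the summed normalized count per kb, which does not depend on the scale of a tumor, Gimap9 made up 30.4% ± 4.14 (SD, n = 4) of the signal in untreated M/D-driven and 39.1% ± 3.37 (SD, n = 3) in untreated AT3 tumors. In NAM-treated M/D tumor 1 its share was 14.3%, and Gimap4 held 38.9%, where the other 7 M/D-driven tumors gave 18.2 to 23.5% for Gimap4. Gimap1 took 3.26% in that tumor and 1.21 to 1.65% in the 7 others. Gimap4 and Gimap1 were thus above, and Gimap5 (4.32%, against 4.51 to 7.02%), Gimap7 (2.57%, against 3.35 to 7.80%) and Gimap8 (2.88%, against 4.44 to 7.67%) below the range of the other tumors of their model, so that the tumor did not show the usual mixture at a higher level. Gimap9 in NAM-treated tumor 4 was lower still (12.0%), where Gimap3 held 27.6%. Between models, the share of Gimap8 was 4.44 to 7.67% in the 7 other M/D-driven and 0.907 to 3.16% in the 6 AT3 tumors, and that of Gimap1 was 1.21 to 1.65% and 3.46 to 8.35%. Neither pair of ranges overlapped. Gimap3 was apart as well, at 9.37 to 27.6% in the 7 other M/D-driven and 2.78 to 7.62% in the 6 AT3 tumors. Within AT3 tumors the share of Gimap8 was 1.11% ± 0.297 in untreated and 2.63% ± 0.575 in NAM-treated tumors (SD, n = 3), with the lowest NAM-treated value (2.02%) above the highest untreated one (1.45%). The share of Gimap9 was 36.6 to 42.9% in untreated and 30.4 to 32.7% in NAM-treated AT3 tumors, which do not overlap either. For Gimap6 these ranges were 21.8 to 24.7% and 20.8 to 21.3%, again without overlap. Shares of a sum are bound to each other, and no test was run on them. They also rest on the transcript lengths used.

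**Figure D4:**
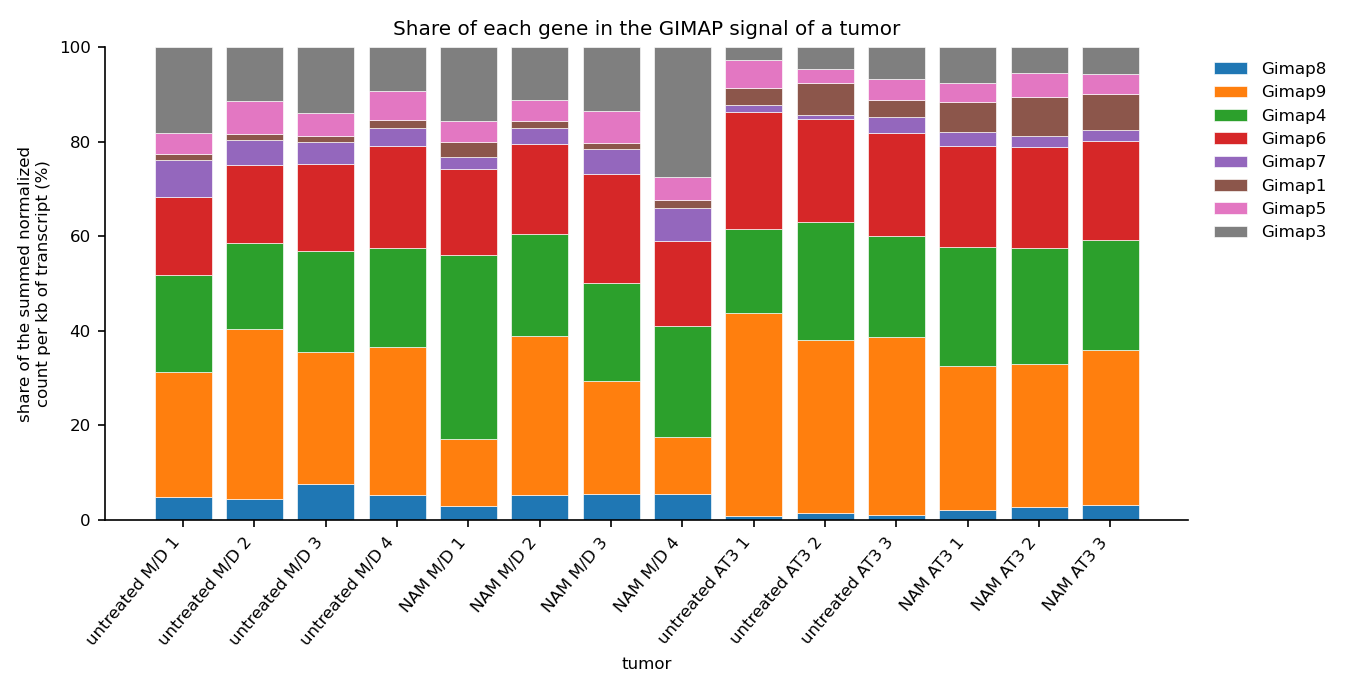
Share of each GIMAP gene (%) in the summed normalized count per kb of transcript, with 1 bar per tumor adding up to 100%. Gimap4 takes 38.9% of the bar of NAM-treated M/D tumor 1, where Gimap8 takes 2.88%. The segment of Gimap8 is thinner in AT3 (0.907 to 3.16%) than in the 7 other M/D-driven tumors (4.44 to 7.67%).

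Many pairs of members rose and fell together from tumor to tumor, but not all did. Over the 28 pairs of members, Pearson's r of log2 values had a median of 0.93 (0.72 to 1.00) across the 8 M/D-driven tumors, which fell to 0.70 (−0.27 to 0.93) across 7 tumors without NAM-treated tumor 1 and stood at 0.59 (−0.40 to 0.98) across the 6 AT3 tumors. The corresponding medians of Spearman's rho were 0.74, 0.61 and 0.48. Pairs with r above 0.7 numbered 28, 14 and 10. Gimap9 had r of −0.27 to −0.06 with the other members across the 7 M/D-driven tumors. Across AT3 tumors Gimap8 had r = −0.40 with Gimap9 and −0.25 with Gimap6. These are descriptions over few tumors that share a model and its arms, and no p is given. The mean log2 level of the family followed that of 15 T cell markers, with r = 0.94 (rho 0.89) across 7 M/D-driven tumors and r = 0.95 (rho 0.94) across 6 AT3 tumors. With the 2 tumors farthest from the median of the T cell level left out, r was 0.82 over 5 and 0.72 over 4 tumors. Going with the family mean was not particular to T cell markers. Left without its own 2 farthest tumors, the NK cell level gave r = 0.80 in M/D-driven and 0.86 in AT3 tumors. The list of other immune GTPases (IRG and GBP) had r = 0.79 and 0.87, and −0.03 and 0.80 without its 2 farthest tumors. NAM-treated M/D tumor 1 was off the line of the T cell list, with a T cell level (mean log2 8.05) inside the range of the other M/D-driven tumors (7.75 to 9.75).

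Single members differed in the lists they went with. Gimap3 had r = 0.99 with the T cell level across the 7 M/D-driven and 0.89 across the 6 AT3 tumors, and Gimap7 had 0.91 and 0.97. Without the 2 tumors farthest from the median T cell level, r was 0.90 and 0.05 for Gimap3 and 0.47 and 0.94 for Gimap7, so that the value of Gimap3 in AT3 and much of that of Gimap7 in M/D-driven tumors rest on those tumors. Gimap9 had r = −0.24 (rho 0.07) to the T cell level in M/D-driven tumors, which turned to 0.50 without the 2 farthest tumors. In AT3 tumors Gimap9 went against several lists, with r = −0.99 to the endothelial, −0.93 to the fibroblast and −0.89 to the naive lymphocyte level, and with the NK cell level (0.88). Gimap6 did likewise, at −0.94, −0.92, −0.82 and 0.91. Gimap8 had r = 0.73 with naive lymphocyte and 0.72 with macrophage markers in AT3 tumors. Its r was 0.53 with fibroblast, 0.52 with T cell, 0.51 with adipocyte and 0.48 with endothelial markers there. Without the 2 farthest tumors of each list, these values in the same order were 0.82, 0.76, 0.09, 0.53, −0.68 and 0.47. The NK cell level went with the family mean in AT3 (r = 0.93) and less closely in M/D-driven tumors (r = 0.68). The B cell level gave r = 0.73 (rho 0.46) across the 7 M/D-driven tumors, turning to −0.43 without the 2 farthest tumors, and −0.53 across AT3 tumors.

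**Figure D5:**
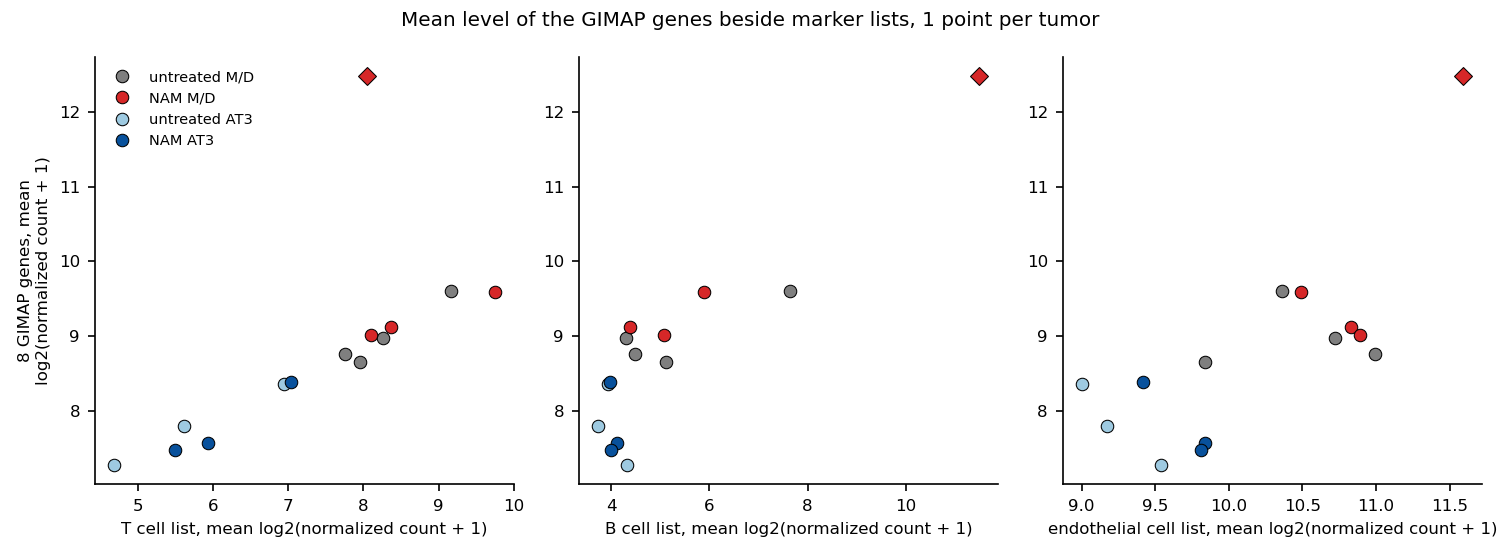
Mean log2(normalized count + 1) of the 8 GIMAP genes against that of the T cell, B cell and endothelial cell lists, with 1 point per tumor colored by arm and a diamond for NAM-treated M/D tumor 1. Points follow the T cell level within each model except for the diamond, which lies at a T cell level of 8.05 and beyond all other tumors on the B cell and endothelial axes.

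Genes with the pattern most like that of the family were sought over the 14 tumors, each centered on its model, among 12734 genes with a mean of at least 50 in both models. Ptprcap, which binds the phosphatase CD45, had r = 0.99 with the mean of the members, and 0.97 over the 13 tumors without NAM-treated M/D tumor 1. It was followed by Traf3ip3, Arhgap15, A630001G21Rik, Il16, Rhoh, a gene listed under the date-like symbol sept-01, Ppp3cc, Stat4 and Klhl6, all at r of 0.97 or 0.98. The number of genes with r above 0.9 was 96 over all tumors and 6 without NAM-treated M/D tumor 1. Among the 10 most like genes without that tumor, Ptprcap (0.97), Arhgap15 (0.94), Traf3ip3 (0.93), A630001G21Rik (0.90) and Il16 (0.90) came again, beside the T cell adhesion molecule Cd2 (0.93), named after its values were seen.

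Genes of naive lymphocyte homeostasis, of lymphocyte survival and of other immune GTPase families were counted from lists. Whether these genes act with the GIMAP family was not tested. In the list of naive lymphocyte homeostasis (14 genes, among them the IL-7 receptor Il7r and the factors Foxo1, Klf2 and Tcf7), 7 were called higher and 0 lower with NAM in AT3 tumors, with a median log2 fold change of 0.83, where 12.2% of all genes were called higher and 10.9% lower. Ikzf1, which encodes the lymphoid factor Ikaros, changed by 1.42 (31.7 ± 11.6 to 87.1 ± 31.4, SD, n = 3, limma adjusted p = 0.17) and Runx3 by 1.39 (38.7 ± 13.9 to 103 ± 31.5, limma adjusted p = 0.17). Foxo1 and Tcf7 each rose by 1.24. With the trend with length and GC content removed, 5 of the 14 were called higher, with a median of 0.54. In M/D-driven tumors 1 of the 14 was called higher (Lef1, which is also in the precursor B cell list), and without NAM-treated tumor 1 Runx1 (−1.31) and Runx3 (−1.56) were called lower and none higher. In NAM-treated M/D tumor 1, 11 of the 14 were at their highest.

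Of 11 genes of lymphocyte survival (the BCL2 family and GSK3 kinases), Gsk3b (0.91) was called higher and Bad (−0.70) lower with NAM in AT3 tumors, a share below the 23.1% of all genes, and none in M/D-driven tumors with or without NAM-treated tumor 1. Of 14 other immune GTPases (the IRG and GBP families, which are induced by interferons), Gbp7 (1.62) was called in AT3 and none in M/D-driven tumors. Between untreated models, the interferon-induced GTPases had a median of 1.04 in AT3 minus M/D and 4 of 14 called higher, near the 26.5% of all genes, among them Igtp (2.30) and Irgm1 (1.95), and 1 lower (Gbp7, −1.99).

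Marker lists moved as follows beside these results, and their part was not tested. Of all genes tested with NAM, 3.03% were called higher and 3.19% lower in M/D-driven tumors. Without NAM-treated tumor 1 these shares were 2.85% and 2.33%, and in AT3 tumors they were 12.2% and 10.9%. With NAM, T cell markers had 0 of 15 called in either model, with medians of 0.08 in M/D-driven tumors, 0.41 without NAM-treated tumor 1 and 0.35 in AT3 tumors. Of 10 NK cell markers 2 were called higher in M/D-driven tumors, with or without that tumor, and 0 in AT3 tumors. Of 16 endothelial markers 6 were called higher in AT3 tumors, Kdr (1.54) and Cdh5 (1.39) among them, and 2 lower, Cldn5 (−0.72) and Egfl7 (−0.67), the latter pair named after their values were seen. The summed level of the endothelial list was 12694 to 16111 in untreated and 15719 to 20535 in NAM-treated AT3 tumors. Of 10 macrophage markers 4 were called higher in AT3 tumors, with a list median of −0.16 and a summed level of 59068 to 90800 in untreated and 57515 to 81787 in NAM-treated tumors. In M/D-driven tumors 1 endothelial marker was called higher (list median 0.41), and 0 were called without NAM-treated tumor 1 (0.25). Of the macrophage markers 0 were called there, with or without that tumor. B cell markers had 0 of 12 called in M/D-driven tumors, with a median of 1.51 that was −0.19 without NAM-treated tumor 1, and 1 of 10 higher and 2 lower in AT3 tumors. Of the precursor B cell list, 1 of 12 was called higher in M/D-driven tumors and 0 of 9 without tumor 1, and 2 of 9 higher and 1 lower in AT3 tumors. Epithelial markers had 0 of 9 called in M/D-driven tumors (median −1.19), 1 called lower without NAM-treated tumor 1 (Cdh1, with a list median of −0.15) and 1 higher and 1 lower in AT3 tumors. Fibroblast markers had 3 of 8 called higher in AT3 and 0 in M/D-driven tumors, and adipocyte markers 2 of 6 higher in M/D-driven tumors, in both cases with or without tumor 1, and 1 lower in AT3 tumors. Between untreated models, 13 of 15 T cell markers were lower in AT3 (median log2 difference −2.16, with Cd6 at −3.49), and most other lists were lower as well, where 30.2% of all genes were. This held for 11 of 14 genes of naive lymphocyte homeostasis (median −2.10), 6 of 9 epithelial (−1.89), 8 of 16 endothelial (−0.78), 6 of 10 macrophage (−0.90), 5 of 8 fibroblast (−1.24) and 6 of 6 adipocyte markers (−5.97). B cell markers were lower for 3 of 12, precursor B cell markers for 3 of 10, and 0 of 10 NK cell markers were called. No defining marker of T cells, B cells or endothelium was at 0 throughout a model.

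Most genes around the cluster did not share the excess seen in NAM-treated M/D tumor 1. Among 15 genes within 300 kb with a median of at least 10 in the other M/D-driven tumors, Gimap1os set aside, the level in this tumor was 0.194-fold to 2.23-fold that median, against 5.59-fold for the lowest member. Gimap1os was 24.2-fold above its median. The minimum leaves out genes that are low in the other tumors. Among these, Gm5111 was at 59.4 in this tumor and at 0 to 4.02 in the others, and 1600015I10Rik at 13.6 and at 1.84 to 7.61. Of the neighbors tested, 0 of 17 were called with NAM in M/D-driven tumors (6.22% of all genes) and 0 of 15 in AT3 tumors (23.1%).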

How the data were processed

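RNA of whole tumors was selected for poly(A) and sequenced in paired-end mode by the authors, who used STAR 2.4.0 on mm10, counted reads on constitutive regions of Mouse FAST DB genes and divided the counts by DESeq2 size factors. The deposited values are thus a normalized signal per gene, for 56414 genes, and each model had been normalized apart. In every tumor they were whole multiples of a step (100% within 0.02 of a whole number), which gave back reads. Tumors were grouped by their labels. To log2(normalized count + 1), limma 3.58.1 (R 4.3.3) was applied with its trend option, keeping genes whose mean reached 10 in 1 group or more. Such values understate changes of low genes. Calls required 1.5-fold and an unadjusted p not above 0.05, and adjusted p values are Benjamini-Hochberg over the genes tested. For untreated AT3 against M/D-driven tumors, values were rescaled by median-of-ratios factors over 14 tumors. P values measure the spread between tumors, which may be technical in part. The members and the 12 gene lists were chosen with earlier results of these data known.

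Alternatives were pseudocounts of 0.5 and 5, no filter or a minimum of 50, TMM and upper quartile rescaling, edgeR 4.0.16 and DESeq2 1.42.0 on recovered reads, a replicate block, trends with length and GC content of the longest GENCODE M21 transcript taken out per tumor (spline, 4 degrees of freedom), 1 fit over 14 tumors, adjusted p, and tumors left out in turn. The fits were tested on simulated data. Every member is named in each comparison, and from a list at most the 4 called genes with the largest change, or else its first genes. Promoters are RefSeq sequences on GRCm38.p6 without bases after the start site. Tables were made with Python 3.11.15 and pandas 2.3.3.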

Additional observations from a re-analysis of the deposited data

Results flagged for a closer look

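In groups of 4 tumors, a value was singled out when its gap to the nearest tumor took up nearly the whole range of the group. This held for 9 of the 16 groups tested (8 members in 2 arms of M/D-driven tumors). For normally distributed values chance gives about 1 in 20. Normalized counts were used here without a log, so that rate need not hold for them. In the NAM-treated arm, tumor 1 was the tumor set apart for 7 members, with a gap of 0.972 of the range for Gimap1, 0.847 for Gimap3, 0.969 for Gimap4, 0.961 for Gimap5, 0.979 for Gimap6, 0.914 for Gimap8 and 0.861 for Gimap9. Gimap7 was highest in that tumor as well, but its gap stayed below the limit, since NAM-treated tumor 4 was high too. In the untreated arm, tumor 1 was set apart for Gimap7, with a gap of 0.854 of the range (438 against 127 to 173), and for Gimap9, with 0.862 (1628 against 1098 to 1171). The members share tumors and are not independent of each other, so these are 2 tumors and not 9 separate events.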

How the results depend on the processing

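With 3 or 4 tumors per arm, intervals of single members span up to several log2 units, and smaller changes were not detectable. Causes of the shifts below were not tested. For NAM in M/D-driven tumors, 0 members were called, but edgeR called 3 (Gimap1 2.97, Gimap4 2.67, Gimap6 1.93), DESeq2 1 (Gimap3; no p for 5 of 8 members) and the fit with a replicate block 1 (Gimap3), all higher; leaving out any tumor gave 0, and Gimap9 ran from −0.26 (without NAM-treated tumor 1) to 0.84. In AT3 tumors 1 member was called, against 0 with adjusted p, 0 in the fit over 14 tumors, 1 with upper quartile rescaling or with the replicate block (Gimap9 lower in both, Gimap8 lost), 2 with the length and GC trend removed, and 0 to 4 when a tumor was left out. The fit that called 4, without untreated tumor 2, also called 3455 genes higher and 3310 lower of 18933 tested. Signs there turned for Gimap3 (−0.13 with upper quartile rescaling; −0.37 to 0.58 over tumors left out), Gimap4 (0.35 with the trend removed; −0.50 to 0.03), Gimap5 (−0.82 to 0.02) and Gimap7 (−0.07 with edgeR, −0.05 with DESeq2; −0.45 to 1.02). For the interaction, edgeR and the replicate block each called 1 (Gimap6, lower) where 0 had been called, and signs turned for Gimap8 (0.12 with TMM, 0.09 with the trend removed; −0.29 to 0.59 over tumors left out), Gimap1 (−1.59 to 0.06) and Gimap7 (−1.19 to 0.28). Between untreated models 4 members were called, against 3 in the fit over 14 tumors (Gimap1 lost) and 6 without rescaling (Gimap4 and Gimap5 also lower). Signs turned for Gimap4 (0.20 with upper quartile rescaling), Gimap6 (0.47 with upper quartile rescaling, 0.01 with DESeq2, 0.36 with the trend removed; −0.20 to 0.28) and Gimap9 (−0.09 with TMM, −0.02 with edgeR, −0.04 with the replicate block, −0.33 with the trend removed, −0.38 without rescaling; −0.17 to 0.33). Upper quartile rescaling moved the median of all genes to 0.12 (M/D-driven), −0.25 (AT3), −0.35 (interaction) and 0.44 (models), TMM to 0.09 (interaction) and −0.15 (models), and leaving out the rescaling to −0.48 (models). Numbers did not pair the tumors: same-numbered deviations correlated at 0.11, −0.44, −0.22 and −0.19 in M/D-driven and 0.13, 0.26 and −0.16 in AT3 tumors. Over members and alternatives, 170 of 176 results kept direction and call in M/D-driven tumors, 130 of 159 in AT3 tumors, 203 of 216 for the interaction and 153 of 176 between models.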
